A study of Mus musculus with 24 samples.

Results

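Methylation of 32 genes of mitochondrial respiration and fuel oxidation was measured by reduced representation bisulfite sequencing (RRBS) in interscapular brown adipose tissue (BAT) of infant female C57BL/6J mice at PND 12. Members were the fragments whose annotation in the deposited count table named a gene of the list, and 369 of 65535 fragments did so, under 27 of the 32 gene symbols. The 24 libraries were 12 from mice exposed perinatally to DDT and 12 from mice exposed to vehicle (VEH, olive oil; labelled OIL). Each library was a pool of female littermates of a dam gavaged from mid-gestation into the first days after birth, so the litter was the replicate, and pups met DDT through the dam alone. RRBS cuts DNA at MspI sites and reads the cytosines of short CpG-containing fragments. The level of a fragment was the percentage of its CpG calls that were methylated, given only for libraries with 10 or more calls. Tests needed 8 or more such libraries in each group, which left 153 member fragments of 25 genes and 20225 fragments of the table. The table covered chromosomes 1 and 2 and part of 3, and other chromosomes were not analysed here.

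Brown adipocytes burn fatty acids, glucose and branched-chain amino acids to make heat. Acetyl-CoA from these fuels feeds the tricarboxylic acid (TCA) cycle, and its electrons pass through the respiratory chain (complex I to complex IV), which builds the proton gradient that ATP synthase or uncoupled respiration uses. Most genes for these proteins are used in nearly every cell and have CpG-rich starts that are typically unmethylated, while methylation within gene bodies is common in active genes.

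The sequences below, read from GRCm38 on the plus strand with each CpG in capitals, are those on which the results turn. The 4 shown here had the smallest P-values of the member fragments, and lie at the Ndufa10 start (chr1:92473708-92473754), within Idh1 (chr1:65178990-65179027), at the Atp5g3 start (chr2:73911122-73911166) and upstream of Ndufc1 (chr3:51416192-51416286).
Ndufa10: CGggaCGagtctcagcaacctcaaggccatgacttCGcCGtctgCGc
Idh1: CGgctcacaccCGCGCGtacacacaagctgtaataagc
Atp5g3: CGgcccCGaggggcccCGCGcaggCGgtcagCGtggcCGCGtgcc
Ndufc1: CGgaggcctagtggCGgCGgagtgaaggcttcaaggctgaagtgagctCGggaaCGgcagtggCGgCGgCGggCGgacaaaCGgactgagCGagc

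The next set shows how far the level moved between sequences. Ndufa10 above and the Gpd2 fragment (chr2:57338965-57339017) both hold 5 CpGs, at VEH levels of 3.78% and 97.6%. The 3 Acss1 fragments adjoin each other at the gene start (chr2:150668263-150668301, chr2:150668302-150668361 and chr2:150668362-150668401) and hold 4, 1 and 2 CpGs.
Gpd2: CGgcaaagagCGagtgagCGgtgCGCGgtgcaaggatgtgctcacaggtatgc
Acss1, VEH level 2.64%: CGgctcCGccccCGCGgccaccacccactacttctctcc
Acss1, VEH level 20.8%: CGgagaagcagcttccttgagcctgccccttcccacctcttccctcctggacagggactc
Acss1, VEH level 10.3%: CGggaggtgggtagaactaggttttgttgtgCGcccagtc

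Library depth was similar between groups, from 8371958 to 13768991 CpG calls in VEH and from 9895508 to 14124652 in DDT over the whole table. Of the DDT libraries, 3 stood apart. DDT replicate 4 had a median of 63 calls per tested member fragment, against 179 to 317 in VEH, and a level at only 98 of the 153 fragments. It held the lowest of all 24 levels at 45 of those 98 fragments and the highest at 19, with 49 levels at exactly 0%. DDT replicate 12 held the lowest level at 20 and the highest at 14 of 137 fragments, while no VEH library was lowest at more than 6. Its library label lay outside the running numbers of the other libraries, and its calls were spread differently. It had 3817 calls at the Idh1 start, 1536 at Idh3b and 1045 at Slc25a24, where no other library had above 705, 283 and 212. At the starts of Pdk1 and Ppa2 it had the fewest calls, 501 and 2741. The cause was not tested. DDT replicate 3 held the highest level at 17 of 126 fragments, while no VEH library was highest at more than 9. Where 1 of these libraries moved a mean by a large part of the difference between groups, the mean without it is given in many cases, but not in all. The library left out was picked by its level. The VEH mean beside it is over all VEH libraries unless a VEH library is named as left out. As a check of the tissue, the start of Fabp4, a fatty acid binding protein of adipocytes, had a VEH level of 10.04%. The starts of Neb and Myog of skeletal muscle were at 94.4% and at 50.1% to 78.4%, that of the lymphocyte gene Cd2 at 66.8%, and that of Ttn, of muscle, at 13.7%. Single values at a start identify no cell type, and the defining markers Cidea, Ppargc1a, Prdm16, Adipoq and Plin1 had no fragment in the table.

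**Figure D1:**
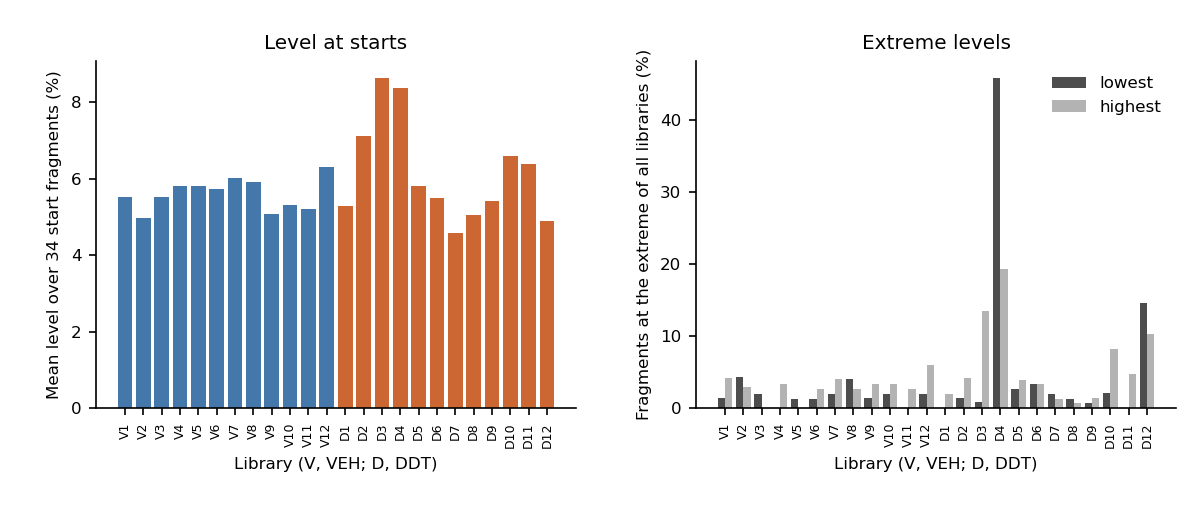
Mean methylation level (%) over the 34 member start fragments with a level in every library, and percentage of each library's member levels that were the lowest or highest of all 24 libraries; V1 to V12 are VEH and D1 to D12 DDT replicates. DDT replicate 4 was lowest at 45.9% and highest at 19.4% of its fragments, and DDT replicates 3 and 4 had the highest mean levels at starts, 8.64% and 8.37%.

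The starts of the member genes were almost unmethylated in both groups. Summed over the fragments that carried the gene's name within 1000 bp of its start, 17 members had a VEH level of 2.24% to 6.24%, with a median of 3.70%, beside a median of 4.12% over 1693 genes of the table. Above 25% were 0 of the 17 members and 7.62% of all genes. The 17 were lowest at Fh1, fumarase of the TCA cycle, with 2.24% ± 0.631 (SD, n = 12), and highest at Acss1, which makes acetyl-CoA from acetate in mitochondria, with 6.24% ± 0.712. The next in order were Slc25a24, at 2.65% ± 2.997, and Pdk1, the kinase that inhibits pyruvate dehydrogenase, at 2.71% ± 0.497. Fh1 and Pdk1 differed by less than the sum of their SDs, whereas every Acss1 library lay above every Fh1 and Pdk1 library in VEH.

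The other 15 members had no start level under their own name. In the table each fragment carries 1 gene name, and 13 members had start fragments that all carried another name. Among these, Cox20, Mpc2 and Ndufaf5 were listed under the older symbols Fam36a, Brp44 and 2310003L22Rik. The starts of Ndufs1, Ndufs3, Atp5c1, Etfdh, Slc25a25 and Acss2 carried the names of genes that start within 1000 bp of them, Eef1b2, Kbtbd4, Kin, 4930579G24Rik, Naif1 and Ggt7. Those of Gpd2, Slc25a12 and Dbt carried Nr4a2, Hat1 and Rtcd1. Taken by position from GENCODE M21 in place of the name, an assignment chosen after the data were seen, 30 of the 32 members had a level at their start, with a median of 3.90% in VEH beside 4.04% over 2194 protein-coding genes. Ndufaf1 and Ivd had no level there. The levels below are these levels by position, and 14 of the 32 members had the start of another coding gene within 1000 bp, so that such a level belongs to both genes. There were 12 libraries per group at each start, apart from 11 DDT libraries at Ndufb3, Idh3b and Slc25a24, and 10 VEH and 11 DDT libraries at Dbt. In pooled tissue a level averages over cell types, and a change in cell shares and a change within cells cannot be told apart.

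**Figure D2:**
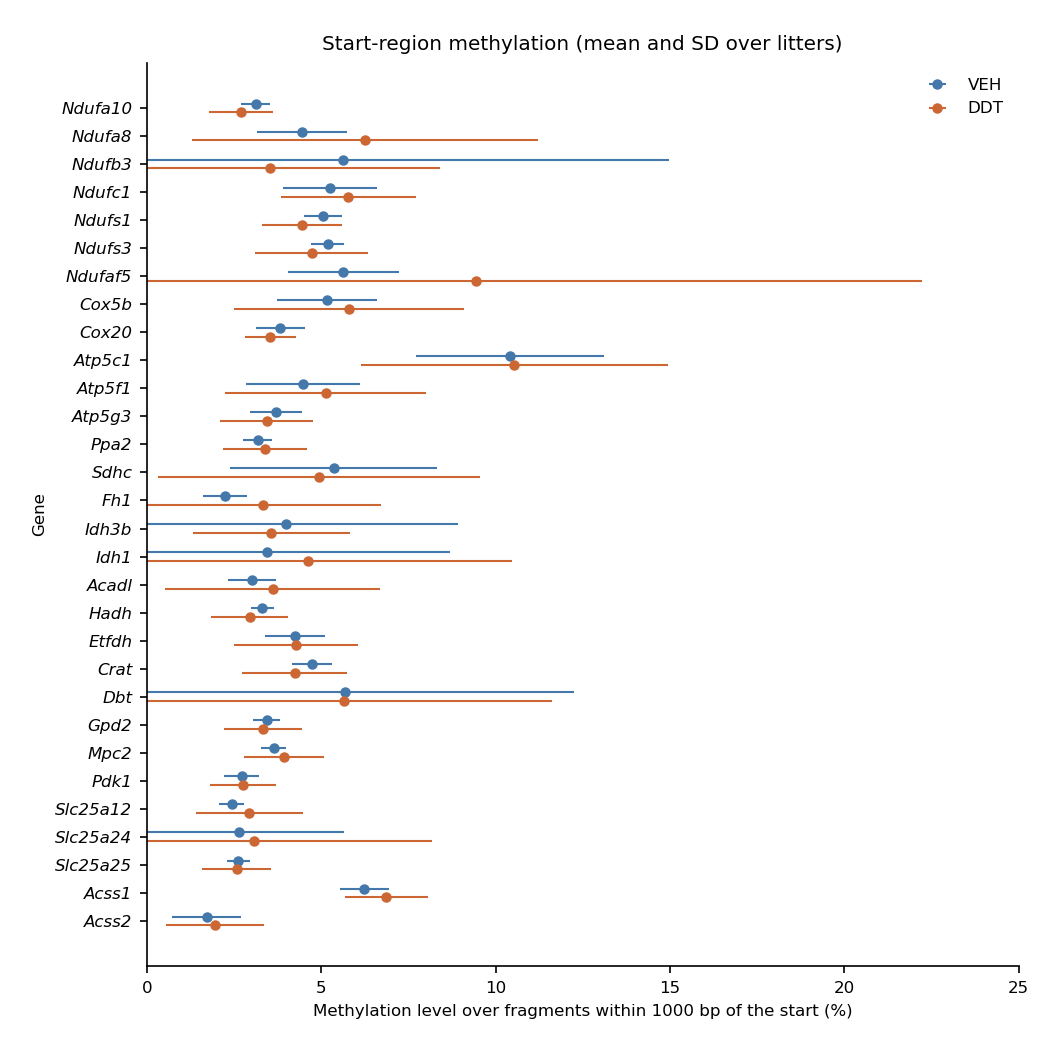
Methylation level (%) summed over all fragments within 1000 bp of the start of each of 30 member genes, ordered by role; points are means and bars SDs over litters (10 to 12 per group), with the lower bar cut at 0. The VEH and DDT bars overlapped at every gene, and Atp5c1 was the only gene with a VEH mean above 10%.

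For complex I, the NADH dehydrogenase that takes electrons into the chain, 6 subunits had VEH start levels between 3.11% and 5.62%. Ndufa10, an accessory subunit, was at 3.11% ± 0.420 in VEH and 2.70% ± 0.916 in DDT (n = 12 each). Ndufs1, which carries iron-sulphur clusters of the electron path, was at 5.06% ± 0.548 and 4.44% ± 1.15. Ndufs3, a core subunit, was at 5.18% ± 0.482 and 4.72% ± 1.62. Means were lower in DDT in these 3 genes, by less than the larger SD in each. DDT replicate 4 was the lowest library at all 3, and without it the DDT means were 2.95%, 4.76% and 5.14%, so that the differences shrank to -0.165, -0.300 and -0.0422 points. The accessory subunit Ndufc1 was at 5.25% ± 1.36 in VEH and 5.77% ± 1.93 in DDT. Ndufa8, another accessory subunit, was at 4.45% ± 1.29 and 6.25% ± 4.97, of which DDT replicate 4 alone, at 21.8%, gave the upper part (4.84% ± 0.818 in DDT without it). Ndufb3 was at 5.62% ± 9.37 and 3.54% ± 4.87, with as few as 17 calls in a library that gave a level. Its VEH mean was 3.004% without VEH replicate 4, at 34.4% of 32 calls, and its DDT mean 2.31% without DDT replicate 6, at 15.8% of 19 calls. Among the assembly factors, Ndufaf5 was at 5.63% ± 1.59 in VEH and 9.44% ± 12.8 in DDT, and the DDT mean was 6.04% ± 5.22 without DDT replicate 3, at 46.9% of 113 calls.

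Complex IV, cytochrome c oxidase, was represented by the subunit Cox5b and the assembly factor Cox20. Cox5b was at 5.17% ± 1.44 in VEH and 5.80% ± 3.31 in DDT, and Cox20 at 3.82% ± 0.701 and 3.54% ± 0.732. In ATP synthase, Atp5c1 of the central stalk had the highest start level of all members, 10.4% ± 2.71 in VEH and 10.5% ± 4.40 in DDT. Atp5f1 of the peripheral stalk was at 4.47% ± 1.63 and 5.13% ± 2.89, and Atp5g3 of the membrane ring at 3.70% ± 0.745 and 3.43% ± 1.34. Ppa2, the mitochondrial pyrophosphatase, was at 3.18% ± 0.416 and 3.39% ± 1.21. In each of these 6 genes the group means differed by less than the SD of DDT. The DDT mean at Cox5b was 4.95% without DDT replicate 10, at 15.2%, and that at Atp5f1 was 4.504% without DDT replicate 3, at 11.99%. The VEH mean was 4.89% at Cox5b without VEH replicate 12, at 8.33%, and 4.14% at Atp5f1 without VEH replicate 6, at 8.105%. Without DDT replicate 4 the DDT mean was 11.5% at Atp5c1, 3.75% at Atp5g3 and 3.07% at Ppa2, and the direction turned at Atp5g3 and Ppa2.

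TCA cycle genes had start levels of 2.24% ± 0.631 at Fh1 and 3.99% ± 4.93 at Idh3b, a subunit of the NAD-dependent isocitrate dehydrogenase, both in VEH. Their DDT levels were 3.32% ± 3.402 and 3.57% ± 2.26. At Fh1 the DDT mean was 2.36% ± 0.770 without DDT replicate 4, at 13.9%, and 2.15% without replicates 4 and 12, and at Idh3b the VEH mean was 2.72% without VEH replicate 8, at 17.96%. Idh1, the NADP-dependent enzyme of the cytosol, was at 3.45% ± 5.23 and 4.63% ± 5.83. Its VEH mean was 2.06% without VEH replicate 5, at 18.8%, and its DDT mean 3.03% without DDT replicate 3, at 22.3%. For fatty acid oxidation, Acadl, the long-chain acyl-CoA dehydrogenase, was at 3.01% ± 0.692 in VEH and 3.60% ± 3.09 in DDT. DDT replicate 4 was at 13.4% there and the other DDT libraries at 2.14% to 3.15%, so that the DDT mean without it, 2.71% ± 0.309, was below VEH. Hadh, which catalyses the third step of the cycle, was at 3.30% ± 0.332 and 2.95% ± 1.10. Etfdh, which passes the electrons to ubiquinone, was at 4.25% ± 0.871 and 4.27% ± 1.78. Crat, the carnitine acetyltransferase that buffers acetyl-CoA, was at 4.74% ± 0.576 and 4.24% ± 1.51. DDT replicate 4 was the lowest library at Hadh, Etfdh and Crat, and without it their DDT means were 3.22%, 4.65% and 4.60%.

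Dbt, a core of the branched-chain keto acid dehydrogenase, was at 5.67% ± 6.59 in VEH and 5.66% ± 5.97 in DDT. As few as 11 calls stood behind a level there, and the DDT mean was 4.46% without DDT replicate 4, at 17.6% of 17 calls. The VEH mean was 4.28% without VEH replicate 6, at 18.2% of 44 calls. Of the pyruvate and glycerol phosphate genes, Mpc2 of the mitochondrial pyruvate carrier was at 3.64% ± 0.361 and 3.93% ± 1.15, Pdk1 at 2.71% ± 0.497 and 2.75% ± 0.943, and Gpd2, the mitochondrial glycerol phosphate dehydrogenase, at 3.43% ± 0.391 and 3.33% ± 1.12. The DDT mean at Mpc2 was 3.64% without DDT replicate 12, at 7.11%, and those of Pdk1 and Gpd2 were 2.98% and 3.62% without DDT replicate 4, the lowest library at both. The mitochondrial carriers were low. The aspartate/glutamate carrier Slc25a12 was at 2.43% ± 0.364 and 2.93% ± 1.53, and the ATP-Mg/phosphate carriers Slc25a24 and Slc25a25 were at 2.65% ± 2.997 and 2.62% ± 0.336 in VEH and at 3.07% ± 5.10 and 2.57% ± 0.985 in DDT. The DDT mean was 2.52% at Slc25a12 without DDT replicate 4, at 7.43%, and 1.58% at Slc25a24 without DDT replicate 5, at 18.0% of 50 calls. The VEH mean at Slc25a24 was 2.01% without VEH replicate 4, at 9.72% of 72 calls. At Slc25a25 the DDT mean was 2.755% without DDT replicate 4, which is above VEH. Acss2, the acetyl-CoA synthetase of cytosol and nucleus, had the lowest start level of the 30, 1.72% ± 0.990 in VEH and 1.96% ± 1.40 in DDT. Without DDT replicate 3, at 4.65%, the DDT mean at Acss2 was 1.710%. The VEH mean there was 1.54% without VEH replicate 6, at 3.61%. The mitochondrial counterpart of Acss2, Acss1, was at 6.24% ± 0.712 and 6.87% ± 1.20 (6.57% ± 0.633 in DDT without replicate 4).

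Over the 30 starts, DDT replicate 4 was the DDT library farthest from the DDT median at 17. The DDT mean was lower than VEH at 13 starts, at 11 without DDT replicate 4 and at 14 without DDT replicates 4 and 12. The direction turned at 6 starts in the first case and at 7 in the second, with Acadl, Ppa2, Gpd2 and Slc25a25 in both. No VEH library was left out in these counts.

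The question the study design poses is whether perinatal DDT changed the methylation of these genes in infant BAT. No member start did so by the test used, an F test of the levels between groups with Benjamini-Hochberg adjustment over all genes. Of the 17 starts taken by name, 0 passed an adjusted P of 0.05, as did 0 of all 1693 (0% of those tested), and at an unadjusted P under 0.05 the counts were 0 and 62 (3.66%). By position, 0 of 30 members and 0 of 2194 coding genes (0%) passed, against 0 and 72 (3.28%) unadjusted. The smallest adjusted P of a member was 0.852 by name and 0.876 by position. A P that misses the threshold does not show equal levels. The 95% interval of the DDT minus VEH difference lay within 5 percentage points of 0 for 15 of the 17 starts and within 2 points for 8. The widest lay from -8.65 to 4.49 points, at Ndufb3.

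Of the 153 member fragments tested, 0 were called at an adjusted P under 0.05, with a smallest adjusted P of 0.869, and the table as a whole held 0 calls among 20225 (0%). At an unadjusted P under 0.05 there were 4 member fragments (2.61%) beside 845 of the table (4.18%), a share below the background. All 4 were lower in DDT, as were 593 of those 845 (70.2%; 2.93% of all fragments tested). The 95% interval lay within 10 points of 0 for 118 of the 137 member fragments with at least 10 levels in each group, and within 5 points for 84. For the start fragments it lay within 5 points for 40 of 54.

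At the Ndufa10 fragment, in an exon 106 bp from the gene start and within a CpG island, VEH levels ran from 2.79% to 4.74% with a median of 3.76%. DDT levels ran from 0% to 4.05% with a median of 3.04%, and 1 of 12 DDT libraries lay above the VEH median. The groups overlapped, and the 2 DDT levels at 0% were those of replicates 4, with 12 calls, and 12, with 694. The means were 3.78% ± 0.522 and 2.56% ± 1.30 (SD, n = 12 each), a difference of -1.22 points (95% interval -2.06 to -0.383, P = 0.00627, adjusted P = 0.869). Without those libraries the difference was -0.709 points (P = 0.00607), so its size, but not its side of the unadjusted threshold, rested on them. With limma on log ratios of all libraries P was 0.154.

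The Idh1 fragment lies in an exon 7452 bp from the annotated gene start. Its VEH levels ran from 1.67% to 3.62% with a median of 2.67%, and its DDT levels from 0.839% to 2.86% with a median of 1.67%, in overlapping ranges. The means were 2.51% ± 0.597 (n = 12) and 1.77% ± 0.667 (n = 11), a difference of -0.736 points (95% interval -1.28 to -0.187, P = 0.0110, adjusted P = 0.869). DDT replicate 4 had 8 calls there, of which 1 was methylated, and gave no level. With a minimum of 5 calls it entered, and the difference was then 0.159 points with P = 0.866.

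The Atp5g3 fragment lies in an intron 160 bp from the start, within a CpG island. VEH levels ran from 1.42% to 2.80% with a median of 2.27%, and DDT levels from 0% to 2.33% with a median of 1.82%. All DDT levels were within or below the VEH range, and the lowest, 0 of 2541 calls, was that of replicate 4. The means were 2.21% ± 0.447 and 1.64% ± 0.655 (n = 12 each), a difference of -0.571 points (95% interval -1.05 to -0.0958, P = 0.0207, adjusted P = 0.869). It was -0.476 points without DDT replicates 4 and 12 (P = 0.0172), and limma on log ratios gave P = 0.109.

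The fourth fragment carried the name Ndufc1 but lies 7204 bp upstream of it, in a CpG island within 1000 bp of the start of Naa15. VEH levels ran from 1.0% to 24.3% with a median of 9.39%, and DDT levels from 0% to 12.5% with a median of 4.0%. The upper part of the VEH range lay above the highest DDT level, and its lower part overlapped DDT. The means were 10.98% ± 8.51 (n = 12) and 4.71% ± 4.13 (n = 11), a difference of -6.27 points (95% interval -12.2 to -0.386, P = 0.0379, adjusted P = 0.869). It was the most variable of the 4 in VEH, with 23 to 133 calls per VEH library. DDT replicate 12 had 1941 calls there, and the next DDT library, replicate 2, had 231. Without DDT replicates 4 and 12 the difference was -6.38 points (P = 0.0446), and P was 0.0706 without VEH replicate 8.

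**Figure D3:**
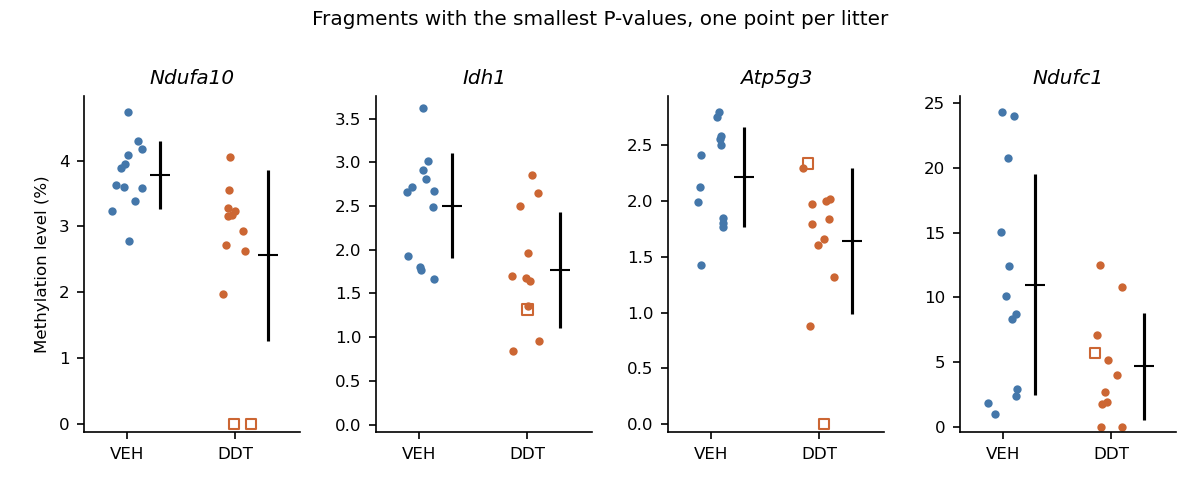
Methylation level (%) of the 4 member fragments with an unadjusted P under 0.05, with 1 point per litter and the mean and SD beside each group; open squares are DDT replicates 4 and 12, and each panel has its own scale. VEH means of 3.78%, 2.51%, 2.21% and 10.98% stood beside DDT means of 2.56%, 1.77%, 1.64% and 4.71%, and the groups overlapped in every panel.

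In the other role groups, the fragment with the smallest P was further from the threshold. At Idh3b it was a fragment of the Ebf4 start (1.70% ± 0.719 in VEH, 1.14% ± 0.654 in DDT, n = 12 each, P = 0.0592). In the carriers it was an intron of Slc25a25, at 49.1% ± 6.10 (n = 12) and 44.8% ± 3.44 (n = 10), P = 0.0643. The Cox5b fragment that spans the gene start was at 5.97% ± 5.43 and 2.20% ± 3.52 (n = 10 each, P = 0.0821). Crat had its smallest P at a highly methylated fragment 34149 bp upstream, 99.3% ± 0.798 (n = 12) and 99.8% ± 0.334 (n = 10), P = 0.105. The smallest P was 0.140 for the Acss1 fragment with 20.8% in VEH, at 22.9% ± 3.14 in DDT, 0.154 at Dbt, 0.194 at a fragment named for the complex I assembly factor Ndufaf1, and 0.226 at Gpd2. The adjusted P of each of these was 0.869.

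Of the members that the table lists under another name, 2 had a start fragment at an unadjusted P under 0.05, among 63 tested, beside 4.18% over the table. At Cox20 the smallest P was 0.0294 and at Ndufs1 0.0284, with an adjusted P of 0.869 in each. Other genes of the same pathways were read from a list of 180, of which 14 had fragments here. Of their 43 tested fragments, 1 had an unadjusted P under 0.05 and lower levels in DDT (beside 2.93% of all fragments tested), 0 were higher, and 0 passed the adjusted threshold. That fragment was at the start of Pdss1, which makes the side chain of coenzyme Q (4.18% ± 0.571 in VEH, 3.28% ± 0.978 in DDT, n = 12 each, P = 0.0122, adjusted P = 0.869). The 7 tested starts of these genes had a median VEH level of 3.92%.

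The direction of the small differences turned when a pair of libraries was left out that had been singled out by their levels. DDT replicates 4 and 12 held the lowest of all 24 levels at 45 and 20 of these fragments and the highest at 19 and 14. Leaving them out therefore tends by selection to raise DDT means and to narrow the DDT spread. The DDT mean was lower at 92 of the 153 member fragments (60.1%), beside 56.9% of all tested fragments, with a median difference of -0.22 points. Without DDT replicates 4 and 12 it was lower at 70 (45.8%), beside 49.3% of all, with a median difference of 0.063 points. Without DDT replicates 3, 4 and 12 it was lower at 81 (52.9%), beside 52.3% of all. The spread also moved. The SD was larger in DDT than in VEH at 113 fragments (73.9%), beside 79.2% of all, at 83 (54.2%) without the pair, beside 59.98% of all, and at 72 (47.1%) without all 3, beside 53.2%.

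At several fragments the DDT mean rested on 1 library. An SD above 15 points was found at 12 member fragments in DDT and at 2 in VEH, and DDT replicate 4 was the farthest library at 7 of the 12. At a Ppa2 start fragment its level was 97.2% (415 of 427 calls), so that the DDT mean of 10.6% ± 27.3 was 2.74% ± 0.815 without it, beside 2.89% ± 0.636 in VEH. At a Ndufa8 start fragment its level was 99.0% of 310 calls, and the DDT mean of 28.8% was 20.1% without it, beside 12.8% ± 7.02 in VEH. The same library was at 0 of 384 calls in an upstream Atp5g3 fragment where VEH was at 69.4% ± 2.79. Other libraries did this at lower depth. DDT replicate 10 had 26 of 26 calls methylated at a Cox5b intron fragment where VEH was at 1.88% ± 2.83, and DDT replicate 3 had 22 of 26 at an Atp5f1 intron fragment where VEH was at 4.09% ± 6.58.

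Levels of member fragments differed by position in the gene and by CpG island. Tested start fragments within CpG islands had a median VEH level of 3.34% (40 fragments), beside 3.75% over 5627 fragments of that class in the table. Start fragments outside islands were at 4.31% (19 fragments), beside 6.16% over 1885. Gene-body fragments, all outside islands, had a median of 62.5% (37 fragments), beside 57.8% over 5268. They were spread over the whole scale, with 15 above 75%, 13 below 25% and 9 between, and 40.5% of them above 75% beside 40.4% of the class. Highly methylated bodies included an Ndufa10 exon 9419 bp from the start at 96.4%, Gpd2 at 97.6% ± 0.351 and an Acadl intron at 97.6%.

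**Figure D4:**
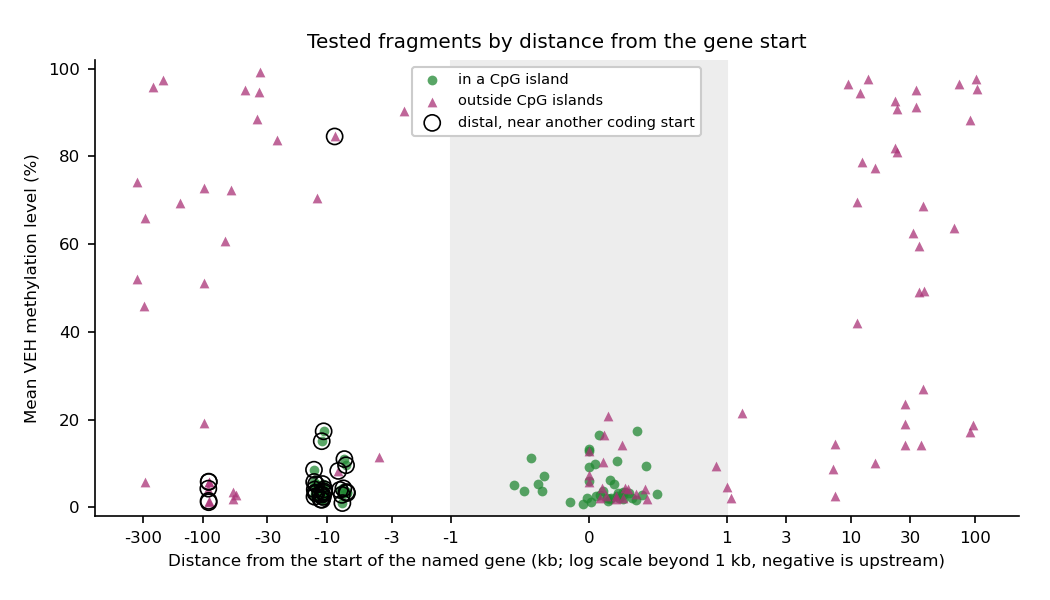
Mean VEH methylation level (%) of the 153 tested member fragments against the distance from the start of the named gene (kb, log scale beyond 1 kb, negative upstream; shaded, within 1 kb); circles are in CpG islands, triangles outside, and open rings mark distal fragments within 1000 bp of another coding start. Fragments within 1 kb lay between 0.713% and 20.8%, and those in gene bodies between 2.17% and 97.6%.

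Several gene-body fragments were as low as starts. A pair of adjoining Atp5f1 intron fragments (chr3:105958958-105959010 and chr3:105959011-105959090), just past 1000 bp from the start and within 1000 bp of the start of Wdr77, were at 2.17% ± 0.824 and 4.70% ± 2.59. The Idh1 fragment described above was at 2.51%, and its neighbours chr1:65179028-65179105 at 14.3% and chr1:65179106-65179252 at 8.75% ± 5.83. RefSeq and GENCODE place an alternative protein-coding start of Idh1 there. A Dbt intron fragment with 1 CpG (chr3:116528593-116528628) was at 10.2% ± 5.92, while the fragment that adjoins it was at 77.3% ± 11.1. In Slc25a25, 3 adjoining fragments about an alternative start had VEH levels of 14.2% to 23.5%.

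The distal members were mostly not regions of the named gene. Of 57 tested fragments named for a member from beyond 1000 bp upstream or downstream of it, 33 lay within 1000 bp of the start of another coding gene, including all 26 in CpG islands. These 26 had a median VEH level of 3.54%, and they were the starts of Rtf1 (named Ndufaf1), Ebf4 (named Idh3b) and Naa15 (named Ndufc1). Outside islands, the starts of Cdc14a carried the name Dbt. The distal fragments outside islands had a median of 60.8% (31 fragments), beside 65.0% over 5982.

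At member starts, longer fragments mostly had higher levels. The infant reads were single-end and short beside fragments above 110 bp, whose inner CpGs were therefore not read. The level of such a fragment stands for CpGs toward its ends, and the CpG numbers given are those of its whole sequence. In VEH the median was 2.83% over 24 member start fragments of 30 to 60 bp, 3.68% over 20 of 61 to 110 bp and 9.84% over 15 longer than 110 bp. All start fragments of the table showed the same order, at 3.53%, 4.23% and 11.8%. In 11 of the 14 members with at least 2 tested start fragments, the longest was higher than the shortest. At Cox5b the fragment of 57 bp with 4 CpGs was at 1.23% ± 1.94 and that of 159 bp with 16 CpGs at 16.5% ± 3.50. At Ndufa10 the fragments of 31 and 113 bp were at 1.78% ± 0.310 and 13.4% ± 2.13, and at Acadl those of 48 and 145 bp at 1.46% ± 0.409 and 12.8% ± 3.64. Crat, Idh1 and Pdk1 went the other way. Calls fell with length, from a median of 924 per library at 30 to 60 bp to 80 above 110 bp. Across the 59 fragments Spearman's rho was 0.42 for length and 0.096 for the number of CpGs, as a description of fragments that share libraries and starts. For length over all start fragments of the table it was 0.22. The parts of depth and of read length in this were not tested.

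**Figure D5:**
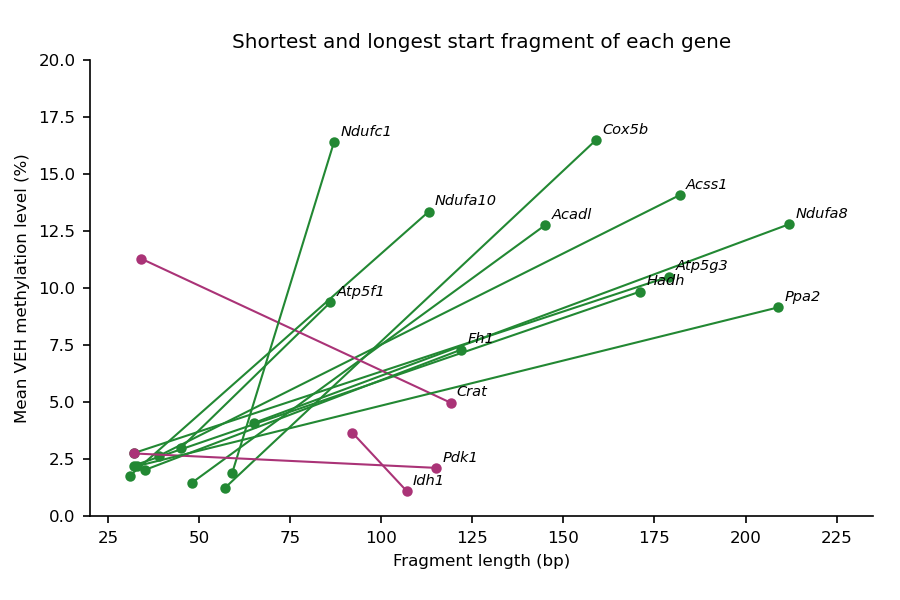
Mean VEH methylation level (%) of the shortest and the longest tested start fragment of each of 14 member genes against fragment length (bp), joined by a line; green, longest higher, and purple, longest lower. The longest was higher in 11 genes, as at Cox5b, 1.23% against 16.5%.

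Among start fragments that carried the name of their own gene, the highest level was that of a short fragment, against this order. It was the Acss1 fragment of 60 bp at 20.8% ± 3.37, with 1 CpG. Below it were a Ppa2 intron fragment of 120 bp at 17.4% ± 8.34, the Cox5b fragment of 159 bp, an Ndufc1 fragment of 87 bp at 16.4% ± 2.74 and an Acss1 fragment of 182 bp and 24 CpGs at 14.1% ± 8.23. The Cox5b fragment had a DDT mean of 24.5% ± 23.0, of which DDT replicate 4, at 95.5%, gave the upper part (18.1% ± 5.82 without it). The Acss1 fragment of 60 bp ran from 16.1% to 26.8% in VEH and from 15.9% to 26.8% in DDT, which is nearly the same range.

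Transcription factors that switch on respiratory genes bind short motifs near their starts, and 4 of these were searched on both strands in RefSeq promoters (GRCm38.p6), from 250 bases before to 50 after the start. Promoters were found for 27 of the 32 members. The NRF1 motif CGCATGCGC was in 3 of 27 genes (Etfdh, Ndufa8 and Ndufaf5) and in 1.95% of all 27025 genes. The GABPA motif CCGGAAG was in 6 (Acss2, Cox20, Idh3b, Ndufaf1, Ndufs3 and Slc25a25) and in 9.93% of all. The YY1 motif AAGATGGCG was in Ndufc1 (1.64% of all) and the ERR-alpha motif CAAGGTCA in Atp5g3 (1.76% of all). In the 154 other pathway genes with promoters these motifs were in 13, 37, 14 and 4 genes. The promoters of 2 genes are printed in the direction of transcription with the match in capitals, Ndufa8 because its match lies inside a tested fragment and Atp5g3 because it has a fragment among the 4 above.
Ndufa8, chr2:36049289-36049588, minus strand: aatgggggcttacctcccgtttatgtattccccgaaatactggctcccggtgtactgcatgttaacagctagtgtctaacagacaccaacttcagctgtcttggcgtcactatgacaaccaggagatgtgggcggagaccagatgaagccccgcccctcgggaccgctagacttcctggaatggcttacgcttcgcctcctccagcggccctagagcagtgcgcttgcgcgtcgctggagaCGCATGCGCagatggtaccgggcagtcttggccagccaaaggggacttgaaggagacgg
Atp5g3, chr2:73911277-73911576, minus strand: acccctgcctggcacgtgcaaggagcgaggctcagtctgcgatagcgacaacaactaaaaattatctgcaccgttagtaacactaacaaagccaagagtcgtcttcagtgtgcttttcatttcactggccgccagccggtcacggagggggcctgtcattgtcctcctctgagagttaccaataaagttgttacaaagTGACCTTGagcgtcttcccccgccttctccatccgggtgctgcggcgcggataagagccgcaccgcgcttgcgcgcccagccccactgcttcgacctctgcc

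The Ndufa8 match, 9 bases before the start, lies in a fragment of 212 bp (chr2:36049328-36049539) with a VEH level of 12.8% ± 7.02 and a DDT level of 28.8% ± 27.5, or 20.1% ± 8.57 without DDT replicate 4. The F test of the 10 VEH and 9 DDT levels of this fragment gave an unadjusted P of 0.092. The Ndufa8 match was the only one that lay whole in 1 tested fragment. The GABPA match in Slc25a25 overlaps a fragment at 0.863% ± 0.560 in VEH and 1.25% ± 1.75 in DDT. At Ndufs3 each match lay across 2 adjoining fragments, with most of its bases in a fragment at 12.1% ± 2.69 in VEH and 11.6% ± 4.55 in DDT. The fragments on either side of that one were at 4.12% ± 0.645 and 3.703% ± 0.764 in VEH and at 3.56% ± 1.68 and 3.04% ± 1.48 in DDT. At Cox20 the match lay across fragments at 8.19% ± 2.49 and 9.76% ± 2.52 in VEH, and 8.16% ± 4.21 and 6.94% ± 3.25 in DDT. At Idh3b a single base of the match was in a tested fragment, at 4.31% ± 5.46 and 3.67% ± 2.32. No tested fragment covered the Atp5g3 match. A match gives the letters only and does not show that the factor was bound.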

How the data were processed

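BAT of PND 12 female mice was profiled by RRBS in 24 libraries, 12 VEH and 12 DDT, grouped by the labelled perinatal treatment. The authors trimmed single-end reads with Scythe and Sickle and aligned them to GRCm38 with Bismark 0.15.0 and Bowtie 2. They deposited counts of methylated and not methylated CpG calls per MspI fragment, without normalization. From these counts the level (percent of calls methylated) was computed for libraries with 10 or more calls, and fragments with levels in 8 or more libraries of each group were tested. Groups were compared with a two-sided F test per fragment, and per gene on calls summed within 1000 bp of the start, with Benjamini-Hochberg adjustment over the table at 0.05. Python 3.11.15, scipy 1.17.1 and limma 3.58.1 were used, and scripts were tested on simulated data. Total calls per library were 8371958 to 14124652, and bisulfite reads without molecular identifiers are not independent molecules. GENCODE M21 and RefSeq GRCm38.p6 gave positions and sequences. The annotation release behind the gene names is not given in the sources used here.

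The members and gene lists were chosen with earlier results of these data known. Members with a start level were named with it, apart from 1 that enters the counts, medians and plot and whose values are not reported here. Fragments were named singly if called, if they had an unadjusted p under 0.05 (up to 20), if they had the smallest p of a role group, or if they were among the 5 highest at starts or the 5 lowest in gene bodies. The fragments named for a wide spread, for a neighbour or for length were chosen after their values were seen. Settings were changed singly: limma on log2((methylated + 1) / (not methylated + 1)) or a quasi-binomial model as the test, 5 or 20 as the lowest number of calls, fragments covered in 24 libraries alone, log10 depth or the replicate number as a further term, omission of single libraries or of DDT replicates 4 and 12 together, 2 libraries per group with any number of calls, a difference of 5 percentage points or more, and windows of 500 or 2000 bp. The assignment of starts by position and the omission of DDT replicates 3, 4 and 12 singly or together at starts and in counts were added after the data were seen. So was the count of lower DDT means without DDT replicates 4 and 12.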

Additional observations from a re-analysis of the deposited data

Results flagged for a closer look

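At the Cox5b fragment that spans the gene start, 1 library of each group lay far from the rest of its group. The highest VEH level, 18.8% in VEH replicate 7 (48 calls), was followed by 8.07%, and the highest DDT level, 11.4% in DDT replicate 1 (35 calls), by 3.23%. Each group had 10 levels, and 8 groups of named fragments had 4 to 10 levels. For normally distributed values chance flags about 1 in 20. Several DDT levels at this fragment were exactly 0%, from few calls, so that rate need not hold here.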

How the results depend on the processing

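Neither a member fragment nor a member start was called under any of the alternatives, and the smallest adjusted p of a member fragment was 0.583 (quasi-binomial regression) to 0.949 (without DDT replicates 4 and 12). Over the whole table limma and the quasi-binomial regression also called 0 fragments, while 2 libraries per group with any number of calls gave 80 called, of which 0 were of 277 tested members. At an unadjusted p under 0.05 there were 4 member fragments (2.61%, beside 4.18% of all tested fragments). Under the quasi-binomial regression there were 11, where the background was 7.72% of all tested fragments. With levels in all 24 libraries there were 2 of 80. With 1 library left out there were 3 to 7, the 7 without VEH replicate 5, where the background was 3.70% to 5.38%. Without DDT replicates 3, 4 and 12, chosen after the data were seen, there were 5 of 144, beside 3.99% of all tested fragments, and 0 calls. With the replicate block there were 6 of 153 and 0 calls. The shares over all fragments are not given here for levels in all 24 libraries, the block and the setting without a minimum. Those member counts are therefore not set against a background. The labels do not say whether a shared number pairs litters. Of same-number pairs, 3 of 12 correlated over 0.1 (median 0.011), and 1 VEH library correlated best with its own number. Such correlations of levels cannot settle whether the numbers mark a shared block. The median VEH start level of 3.70% was 5.45% as a mean of fragment levels, which weights the thinly covered long fragments more, and 3.60% to 3.78% with 1 VEH library left out. The causes of these changes were not tested.

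Of 644 differences of the 20 named fragments under alternatives, 619 kept their direction, 0 were called and 25 turned. In percentage points, these were 0.159 at Idh1 (65178990) with a minimum of 5 calls and with no minimum. They were 4.94 at Slc25a25 and 4.20 at Ppa2 with at least 2 libraries and no minimum. At Gpd2 (57338965) they were 0.141 under the quasi-binomial regression and 0.0565 without DDT replicates 4 and 12. At Ndufc1 (51408791) they were -0.307 under the quasi-binomial regression, -0.0515 on limma's log2 scale, and -0.544 to 0.608 with 1 library left out, where the negative values are those that turned. At Atp5f1 (105958958) they were -0.0635 under the quasi-binomial regression, -0.103 with a minimum of 5 calls and with none, and -0.0756 to 0.212 with 1 library left out, where the negative values turned. At its neighbour (105959011) they were -1.27 to 0.0741 with 1 library left out, where the positive values turned, and 0.0302 without DDT replicates 4 and 12. Start fragments above 110 bp had a median of 80 calls per library, beside 924 at 30 to 60 bp.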
